A study of Hydrangea macrophylla with 27 samples.

Results

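The clusters described here are the cyclins, cyclin-dependent kinases (CDKs), CDK inhibitors and core histones of Hydrangea macrophylla, a garden hydrangea, measured by RNA sequencing in whole stems of the cultivar Wudu. A member was any assembled transcript cluster whose best Swiss-Prot match came from a plant and was named Cyclin-, Histone H2A, H2B, H3 or H4 (histone-modifying enzymes left out), with a total of at least 100 reads over 27 libraries. Capital letters counted, so 23 clusters with such names in lower case only were left out, among them probable histones H2A and H2B. There were 114 members among 142016 clusters in all, of which 59662 had a total of at least 100. The 3 matching clusters just below that total had 66, 70 and 81 reads, and the 3 just above had 134, 155 and 209. By name, 51 members were cyclins, 33 were kinases, inhibitors or CKS subunits, and 30 were core histones. All the plants were wild-type pot plants raised from micro-cuttings in a growth chamber. The bent groups (S) received 12 stem bendings by a moving plastic curtain in the morning of a single day and were sampled at 1, 3, 24 and 72 h, and unbent groups (NS) were sampled at the same times. A further unbent group (T0) was taken 15 min before the treatment. Each of the 9 groups had 3 libraries, numbered as replicates. How many plants a library holds, whether replicates are separate plants and from which moment the hours run are not given, so p-values measure the spread between these libraries, which may in part be technical.

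Progress through the cell cycle is driven by CDKs, which are active only when bound to a cyclin. In plants, D-type cyclins act at the entry into the cycle, where they lead to phosphorylation of the retinoblastoma-related protein (RBR). A-type cyclins act in S phase and towards mitosis, and B-type cyclins and the plant-specific CDKB kinases act at G2 and mitosis. KRP and SMR proteins bind CDK and cyclin complexes and inhibit them, and CKS proteins are docking subunits of the kinases. Core histones are needed in bulk when DNA is replicated, whereas the variant H3.3 is also loaded outside S phase. In a stem, dividing cells lie in the apex, the young internodes and the cambium. Cyclins C, H, L and T and their kinases (CDKC, CDKD, CDKE and CDKG in plants) act largely in transcription and RNA processing, and CDKD with cyclin H also activates the CDKs of the cell cycle. The P and U cyclins, named for their likeness to the yeast cyclin PHO80, are less well placed.

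The names were checked against the other annotations in the deposited table. A domain or orthology term of the broad family was present for 94 of 114 members, and 109 had one there or in their best match among NCBI proteins. For CDKs and their inhibitors any kinase term counted, and for histones any histone term. All 30 histones had one. The cluster named Cyclin-B1-2 (Cluster-9242.55456) is among the 109 by its NCBI match alone. It carried a proteasome maturation factor domain and the matching orthology term, so it goes against its name and was left out of the sums for B-type cyclins given below. Its level, 88.3 FPKM (the authors' values, scaled to cluster length and library size, mean over 27 libraries), was far above the 5.83 to 13.1 FPKM of the 4 other B-type clusters. Cluster-9242.61507, named Cyclin-D3-3 and the highest of the D-type clusters at 31.7 FPKM, had a cyclin domain but a synaptotagmin-like best match over its 5710 bases. CDKF-4 (Cluster-9242.65143) carried a kinase domain with an orthology term for male germ cell-associated kinase. Of the 19 inhibitor and CKS clusters, 4 had no family term in any of these annotations. They include the highest SMR cluster, named SMR4 (Cluster-9242.97252, 15.1 FPKM), which carried an ATP synthase subunit H domain. No member was named CDKA, since plant CDKA proteins are mostly listed as cell division control protein 2, outside the rule.

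Per length, histones were the most abundant members. Mean FPKM per cluster ranged from 76.4 to 251.5 over the 7 H4 clusters, from 73.5 to 293 over the 3 H2B clusters, from 2.14 to 493 over the 12 H3 clusters and from 0.84 to 345 over the 8 H2A clusters. The highest member was a cluster named H3.3 (Cluster-9242.52734). Outside the rule, a cluster named Probable histone H2A.2 (Cluster-9242.54026) was higher, at 959 FPKM, so these ranges do not cover all core histones. The 7 A-type cyclins lay between 0.712 and 14.9 FPKM, the 19 D-type cyclins between 0.332 and 31.7, the 20 other cyclins between 0.277 and 44.0, and the 2 CDKB kinases at 0.825 and 15.5. Histone clusters share long stretches of near-identical sequence and the counting could have split reads between them, and so it could between the KRP4 and KRP5 clusters, the CYCD2 clusters and the CDKF-4 clusters. Strand use was not given, so antisense reads cannot be told apart.

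Library totals ranged from 14.4 to 23.1 M reads, with 2.68% to 8.44% in ribosomal RNA clusters, and the members together took 0.424% to 0.568% of the counts. The lowest member share was in bent stems at 1 h and the highest in unbent stems at 72 h (replicate 2). Xylem markers summed to between 657 and 1411 FPKM and phloem markers to between 213 and 271 FPKM in each library. Of the marker clusters, 1 of 42 for xylem, 1 of 25 for phloem, 1 of 7 for epidermis and 5 of 36 for photosynthetic cells had no read in any of the 3 libraries of at least 1 group. Hydrangea ringspot virus matches held 2.32% to 6.88% of counts, and thrips matches at most 0.0769%. Above 5% ribosomal RNA were 3 libraries (T0 replicate 2, bent 1 h replicate 2 and bent 3 h replicate 2), and 2 exceeded 0.05% thrips matches (T0 replicate 3 and bent 24 h replicate 2). Levels of single clusters below are counts scaled to library size (CPM) with TMM normalization factors. Because stems were sampled whole, fewer dividing cells and less RNA per dividing cell cannot be told apart in any of these values.

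Whether bending changed the members was asked at each time against the unbent stems of that time (edgeR quasi-likelihood test, adjusted p under 0.05 over all 52918 clusters tested). All 114 members entered that test. At 1 h, 1 member was higher in bent stems and 0 were lower, where 1.93% of all clusters were called (1.11% higher and 0.814% lower). At 3 h, 4 members were higher and 7 were lower, and the share called among all clusters was 5.08% (3.05% higher and 2.03% lower). At 24 h and 72 h 0 members were called, and among all clusters 0.0246% (0.0113% higher and 0.0132% lower) and 0% were. The count of 1 at 1 h lies near the background, and the 11 calls at 3 h are 9.65% of the members. The 4 higher calls at 3 h lie near their background share, and the 7 lower calls lie above theirs. Members and all clusters were not matched for read count in these shares, and small changes of clusters with few reads may go uncalled. The 3 h count rested on single libraries: it was 3 without bent replicate 1 or without unbent replicate 3, 6 without bent replicate 2, 7 without unbent replicate 2, and 6 without the 3 libraries rich in ribosomal RNA. None of the 11 calls at 3 h was as large as 2-fold.

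**Figure D1:**
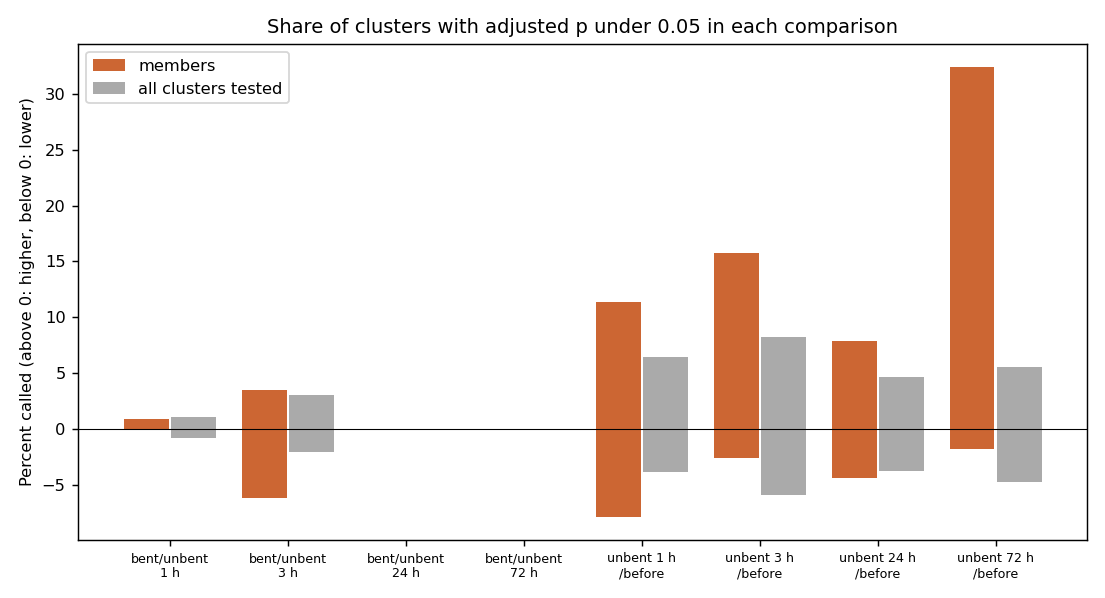
Percent of the 114 members (orange) and of all 52918 clusters tested (grey) called higher (above 0) or lower (below 0) in each comparison, at an edgeR adjusted p under 0.05. Orange and grey bars are close for the bending comparison at 1 h, and the tallest orange bar is that of unbent stems at 72 h, where 37 members were higher against 5.58% of all clusters.

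Among the P and U cyclins, 2 of 7 clusters were higher in bent than in unbent stems, CYCU2-2 and CYCP3-1. CYCU2-2 (Cluster-9242.100187) was expressed at 5.05, 3.56 and 4.29 CPM in the 3 unbent libraries at 1 h and at 11.5, 8.77 and 9.55 CPM in the bent ones. Every bent library lay above every unbent one (log2 fold change 1.21, SE 0.23, edgeR adjusted p = 0.000843). At 3 h its levels were 5.73, 6.32 and 5.28 CPM in unbent and 11.5, 9.80 and 8.20 CPM in bent stems, again without overlap (log2 fold change 0.77, SE 0.22, edgeR adjusted p = 0.0275). At 24 h it had 2.52, 1.62 and 2.76 CPM in unbent and 3.02, 4.12 and 3.26 CPM in bent stems. These groups did not overlap either, but the cluster did not pass. The 24 h bent libraries lay within the range of the 3.48, 2.26 and 4.20 CPM measured before bending. The call at 1 h held in all 17 alternative fits, and that at 3 h in 9 of 17.

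CYCP3-1 (Cluster-9242.37222) had the smallest adjusted p of all members in the bending comparisons. Its levels at 3 h were 86.0, 74.1 and 74.7 CPM in unbent and 123, 119 and 113 CPM in bent stems, which did not overlap (log2 fold change 0.60, SE 0.08, edgeR adjusted p = 3.15e-07). The 3 h bent libraries were the highest of all 27 for this cluster. At 1 h the groups overlapped, with 75.9, 72.6 and 72.0 CPM in unbent and 74.6, 84.3 and 89.7 CPM in bent stems (log2 fold change 0.17, SE 0.08, edgeR adjusted p = 0.359). The test that the bending effect differs between the 4 times passed for this cluster (edgeR F test, adjusted p = 0.0102), and 2.11% of all clusters passed it. The call at 3 h held in all 17 alternatives. CYCU4-1 (Cluster-9242.75992), of the same family as CYCU2-2, had 5.50, 5.00 and 6.21 CPM in unbent and 10.5, 10.1 and 9.08 CPM in bent stems at 3 h, without overlap, and did not pass (log2 fold change 0.83, SE 0.26, edgeR adjusted p = 0.0607).

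**Figure D2:**
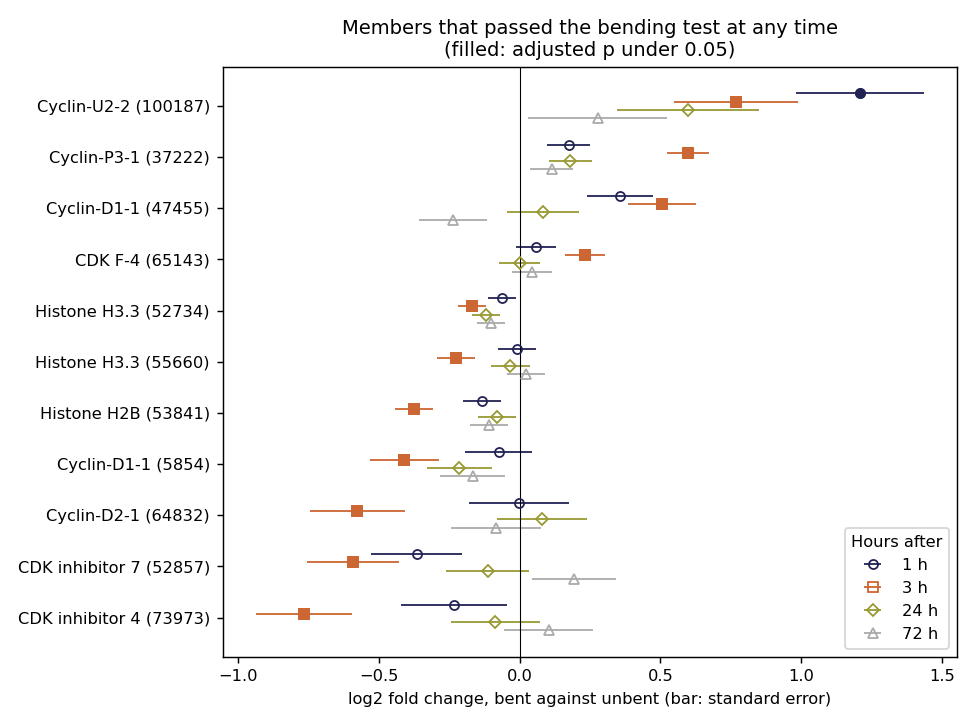
Log2 fold change of bent against unbent stems (x axis, bars are standard errors) at 1, 3, 24 and 72 h for the 11 members that passed at any time. Filled symbols have an adjusted p under 0.05; the 3 h squares lie between -0.77 for CDK inhibitor 4 (KRP4) and 0.77 for CYCU2-2, and no 24 h or 72 h symbol is filled.

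Of 19 D-type cyclins, 3 changed at 3 h, 1 upward and 2 downward. Of 3 clusters named CYCD1-1, 1 rose, 1 fell and the third, Cluster-9242.97185, did not pass (log2 fold change -0.29, SE 0.15, edgeR adjusted p = 0.335). Cluster-9242.47455 had 21.6, 17.7 and 17.2 CPM in unbent and 30.5, 24.5 and 25.1 CPM in bent stems, and the groups did not overlap (log2 fold change 0.50, SE 0.12, edgeR adjusted p = 0.00559). At 1 h the same cluster had 26.9, 27.7 and 29.5 CPM in unbent and 37.9, 34.7 and 35.1 CPM in bent stems, also without overlap, but it did not pass (log2 fold change 0.35, SE 0.12, edgeR adjusted p = 0.129). The CYCD1-1 of Cluster-9242.5854 had 13.9, 16.8 and 16.6 CPM in unbent and 10.2, 14.0 and 11.4 CPM in bent stems at 3 h, where the highest bent library just reached the lowest unbent one (log2 fold change -0.41, SE 0.12, edgeR adjusted p = 0.036). CYCD2-1 (Cluster-9242.64832) had 10.3, 9.87 and 13.5 CPM in unbent and 5.64, 7.03 and 9.90 CPM in bent stems, with 1 bent library inside the unbent range (log2 fold change -0.58, SE 0.17, edgeR adjusted p = 0.0322). The 3 h call of Cluster-9242.47455 was lost without bent replicate 1 or without unbent replicate 3. The calls of Cluster-9242.5854 and CYCD2-1 were lost in 8 and 7 of 17 alternatives.

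Of the 8 KRP inhibitors, 2 were lower in bent than in unbent stems at 3 h. Over all 8, summed CPM in bent stems was 32.5, 37.4 and 30.6 at 1 h and 48.8, 54.7 and 51.2 at 3 h. In unbent stems it was 36.9, 39.6 and 43.9 at 1 h and 64.3, 60.7 and 61.5 at 3 h, so it rose in both. KRP4 (Cluster-9242.73973) had 7.54, 9.28 and 9.94 CPM in unbent and 5.23, 5.59 and 4.89 CPM in bent stems, and each bent library lay below each unbent one (log2 fold change -0.77, SE 0.17, edgeR adjusted p = 0.0028). KRP7 (Cluster-9242.52857) had 6.41, 6.18 and 7.45 CPM in unbent and 4.59, 4.38 and 4.36 CPM in bent stems, also without overlap (log2 fold change -0.59, SE 0.16, edgeR adjusted p = 0.0201). The KRP4 call held in all 17 alternatives and the KRP7 call in 11. Over the 8 KRP clusters the median log2 fold change at 3 h was -0.36, against 0.01 over all clusters. None of the 9 clusters named as SMR inhibitors and neither of the 2 CKS clusters was called. KRP3 (Cluster-9242.20132), the most abundant inhibitor cluster by CPM, had 32.6, 31.1 and 31.6 CPM in unbent and 27.7, 33.1 and 29.8 CPM in bent stems and did not pass (log2 fold change -0.07, SE 0.09, edgeR adjusted p = 0.791).

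Among kinases, 1 of 14 clusters was called at 3 h, where 5.08% of all clusters were called (3.05% higher). That count lies near the background. CDKF-4 (Cluster-9242.65143) had 139, 129 and 121 CPM in unbent and 159, 154 and 143 CPM in bent stems, without overlap but with bent replicate 3 close to unbent replicate 1 (log2 fold change 0.23, SE 0.07, edgeR adjusted p = 0.0426). This call was lost in 10 of 17 alternatives. Its neighbour in the assembly, also named CDKF-4 (Cluster-9242.65144), had 62.6, 48.8 and 49.1 CPM in unbent and 64.1, 58.1 and 56.6 CPM in bent stems, which overlapped (log2 fold change 0.16, SE 0.09, edgeR adjusted p = 0.422). CDKB2-2 (Cluster-9242.60772), a mitotic kinase, had 26.7, 25.3 and 26.3 CPM in unbent and 26.9, 28.4 and 32.0 CPM in bent stems, without overlap, and did not pass (log2 fold change 0.15, SE 0.10, edgeR adjusted p = 0.508). No A-type or B-type cyclin was called in any bending comparison.

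Of 30 histone clusters, 3 were lower and 0 higher in bent than in unbent stems at 3 h. The H2B cluster Cluster-9242.53841 had 123, 134 and 136 CPM in unbent and 95.8, 99.3 and 108 CPM in bent stems, without overlap (log2 fold change -0.38, SE 0.07, edgeR adjusted p = 0.000154). The 2 called H3.3 clusters moved less. Cluster-9242.52734 had 668, 701 and 719 CPM in unbent and 598, 617 and 642 CPM in bent stems (log2 fold change -0.17, SE 0.05, edgeR adjusted p = 0.0308). Cluster-9242.55660 had 134, 132 and 152 CPM in unbent and 105, 127 and 125 CPM in bent stems (log2 fold change -0.23, SE 0.07, edgeR adjusted p = 0.0375). In both H3.3 clusters every bent library lay below every unbent one. The other 2 H2B clusters, named H2B.1, did not pass: Cluster-9242.54169 had 428, 435 and 430.4 CPM in unbent and 422, 444 and 442 CPM in bent stems, with overlap (log2 fold change 0.02, SE 0.06, edgeR adjusted p = 0.944). The H2B call held in all 17 alternatives, and the H3.3 calls in 11 (Cluster-9242.52734) and 14 (Cluster-9242.55660).

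**Figure D3:**
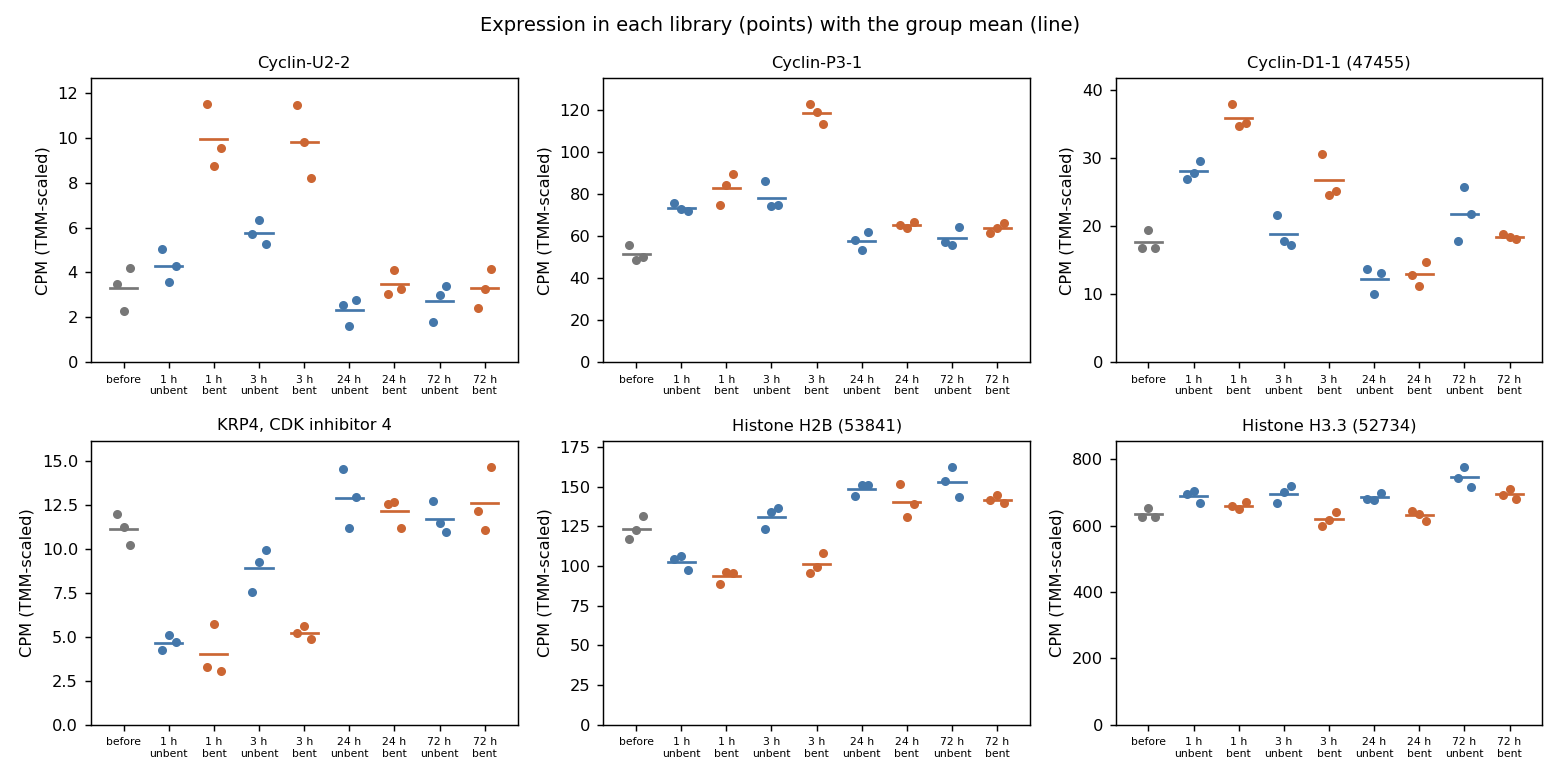
TMM-scaled CPM of 6 members in each library (points, 3 per group) with the group mean (line), by time and treatment (grey, before bending; blue, unbent; orange, bent). At 3 h the bent points of CYCP3-1, CYCD1-1 (Cluster-9242.47455) and CYCU2-2 lie above the unbent ones, and those of KRP4, H2B and H3.3 below them.

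Other tissue markers were measured beside these 3 h changes. Of 30 photosynthetic marker clusters tested, 8 were lower and 0 higher in bent stems at 3 h, and their summed level was 7789 to 8522 FPKM in unbent and 6385 to 6916 FPKM in bent libraries. Of 41 xylem markers, 3 were higher and 0 lower, with sums of 817 to 929 FPKM in unbent and 712 to 928 FPKM in bent stems. Of 22 phloem markers, 3 were higher and 0 lower, and of 5 epidermis markers 0 were called. Among all clusters, 3.05% were called higher and 2.03% lower in this comparison. Ribosomal RNA clusters held 3.07% to 4.06% of counts in unbent and 3.35% to 5.73% in bent libraries at 3 h. The part of these in the members' changes was not tested.

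At 24 h the members gave 0 calls by edgeR, DESeq2 and limma-voom, with 14 of 114 (12.3%) at an unadjusted edgeR p under 0.05, against 6.18% of all clusters. At 72 h there were also 0 calls by the 3 tools, with 23 of 114 (20.2%) at an unadjusted p under 0.05, against 5.45% of all clusters. Members are measured in the same libraries and are not independent, so these shares are descriptions only. Without unbent 72 h replicate 1 there was 1 call, downward. In the bent group at 24 h, replicate 1 stood apart in the replication-linked classes: the 7 H4 clusters summed to 769, 614 and 626 CPM and the 3 H2B clusters to 726, 622 and 634 CPM.

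The unbent stems themselves changed over the day and over the following days. In the F test over 5 time points, 67 of 114 members passed, and 28.8% of all clusters did. Histones made up 24 of those 67. The unbent groups at each time serve both here and as the controls of the bending comparisons, and T0 is shared by all comparisons with before bending, so these results are not independent of each other. Time of day and age of the plant cannot be told apart in the comparisons with T0.

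At 1 h, 13 members were higher and 9 lower than before bending, where 10.3% of all clusters were called (6.46% higher and 3.85% lower). Of the KRP inhibitors, 4 fell in unbent stems. KRP4 went from 12.0, 11.2 and 10.2 CPM to 4.22, 5.11 and 4.69 CPM without overlap (log2 fold change -1.25, SE 0.17, edgeR adjusted p = 2.61e-07). KRP5 (Cluster-9242.73972) went from 5.89, 6.01 and 6.20 CPM to 2.70, 2.72 and 2.99 CPM (log2 fold change -1.10, SE 0.20, edgeR adjusted p = 2.95e-05). KRP3 went from 24.4, 28.8 and 25.9 CPM to 18.7, 19.5 and 20.1 CPM (log2 fold change -0.44, SE 0.10, edgeR adjusted p = 0.000778). KRP7 fell as well (log2 fold change -0.58, SE 0.16, edgeR adjusted p = 0.0076). At 24 h the unbent libraries of all 4 lay within or above the range before bending or overlapped it, and KRP3 then passed as higher than before (log2 fold change 0.40, SE 0.09, edgeR adjusted p = 0.00302). The summed CPM of the 8 KRP clusters was 63.4, 64.5 and 59.1 before bending, 36.9, 39.6 and 43.9 in unbent and 32.5, 37.4 and 30.6 in bent stems at 1 h, and 77.3, 73.9 and 75.5 in unbent stems at 24 h.

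Of 19 D-type cyclins, 1 was higher and 3 lower in unbent stems at 1 h than before bending. Among all clusters 6.46% were higher and 3.85% lower, so the 1 higher call lies near its background share. The class summed to 299.6 to 312.5 CPM before bending and 305.5 to 310.9 CPM in unbent stems at 1 h. The CYCD1-1 cluster Cluster-9242.47455 went from 16.7, 19.3 and 16.8 CPM to 26.9, 27.7 and 29.5 CPM (log2 fold change 0.67, SE 0.12, edgeR adjusted p = 4.27e-05). The CYCD1-1 of Cluster-9242.5854 went from 26.9, 25.4 and 29.6 CPM to 22.2, 17.9 and 17.6 CPM (log2 fold change -0.51, SE 0.12, edgeR adjusted p = 0.00145) and stayed lower at 3 h (log2 fold change -0.79, SE 0.12, edgeR adjusted p = 1.34e-06). CYCD2-1 went from 13.9, 14.3 and 10.6 CPM to 6.44, 8.54 and 5.82 CPM (log2 fold change -0.90, SE 0.17, edgeR adjusted p = 0.000106). The cluster with the highest CPM of the class, Cluster-9242.61507, kept 169.8, 162 and 169 CPM at 1 h against 167, 162 and 170.2 CPM before, and rose at 3 h (log2 fold change 0.19, SE 0.06, edgeR adjusted p = 0.0269).

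Of 8 clusters named CDKC, CDKD, CDKE or CDKG, 2 rose in unbent stems at 1 h and 0 fell, and of 11 C, H, L and T cyclins 2 rose and 0 fell. CDKG-2 (Cluster-9242.50784), of a kinase group tied to splicing in Arabidopsis, went from 71.5, 71.4 and 75.7 CPM to 119, 118 and 112 CPM and was back at 81.0, 69.1 and 68.9 CPM by 3 h (log2 fold change 0.67, SE 0.08, edgeR adjusted p = 5.9e-09 at 1 h). Another CDKG-2 cluster, Cluster-9242.52465, did not pass at 1 h (log2 fold change 0.10, SE 0.06, edgeR adjusted p = 0.403). Of 3 CDKF-4 clusters, 2 rose at 1 h (log2 fold change 0.36, SE 0.07, edgeR adjusted p = 0.000201 for Cluster-9242.65143 and log2 fold change 0.45, SE 0.09, edgeR adjusted p = 0.000219 for Cluster-9242.65144). Cluster-9242.65144 was lower than before bending at 72 h (log2 fold change -0.37, SE 0.09, edgeR adjusted p = 0.00533). CYCT1-3 (Cluster-9242.90564), of the family that pairs with CDKC, had 54.6, 54.3 and 57.0 CPM before bending and 101, 86.9 and 91.1 CPM in unbent stems at 3 h (log2 fold change 0.75, SE 0.08, edgeR adjusted p = 1.76e-10). In bent stems at 3 h it had 95.5, 82.7 and 83.8 CPM, which overlapped the unbent libraries.

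Among P and U cyclins, 3 of 7 rose and 1 fell at 1 h in unbent stems. CYCU4-1 (Cluster-9242.75992) went from 2.28, 2.78 and 2.15 CPM to 4.92, 9.64 and 11.5 CPM (log2 fold change 1.86, SE 0.29, edgeR adjusted p = 1.53e-05), the steepest rise that passed among the members at 1 h. CYCP3-1 went from 55.7, 48.6 and 50.0 CPM to 75.9, 72.6 and 72.0 CPM (log2 fold change 0.51, SE 0.08, edgeR adjusted p = 1.25e-06) and was higher than before at 3 h as well (log2 fold change 0.61, SE 0.08, edgeR adjusted p = 3.96e-08). Both P and U cyclins called higher in bent than in unbent stems were also higher in unbent stems at 3 h than before bending. CYCU2-2 passed there too (log2 fold change 0.79, SE 0.24, edgeR adjusted p = 0.0171). Of the B-type cyclins, CYCB2-3 (Cluster-9242.56832) went from 12.5, 16.1 and 15.1 CPM to 26.9, 22.7 and 24.4 CPM (log2 fold change 0.76, SE 0.13, edgeR adjusted p = 2.03e-05) and was at 15.8, 16.4 and 12.8 CPM in unbent stems at 3 h.

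**Figure D4:**
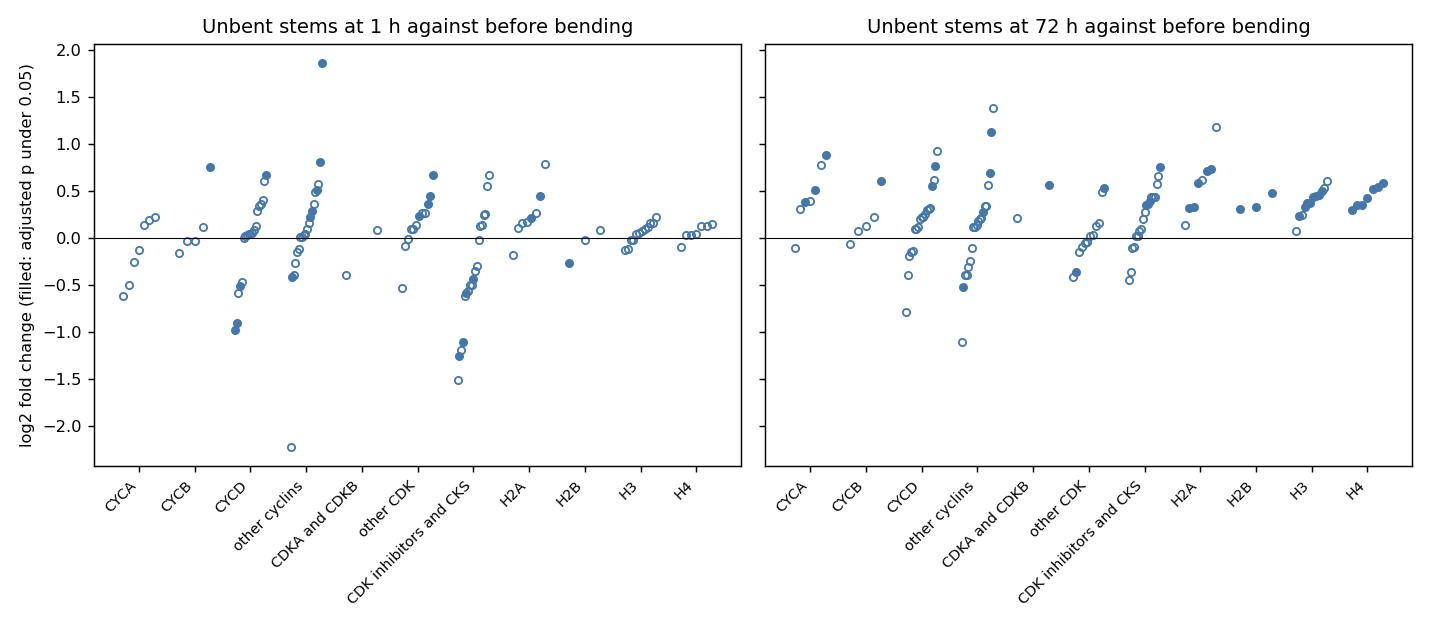
Log2 fold change of each member in unbent stems at 1 h (left) and 72 h (right) against before bending, by class (one point per cluster, filled where the adjusted p is under 0.05). At 1 h filled points lie on both sides of 0, including 4 inhibitors below it; at 72 h all 30 histone points lie above 0 and 23 are filled.

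At 3 h, 18 members were higher and 3 lower than before bending, with 14.1% of all clusters called (8.24% higher and 5.88% lower). Of 8 H2A clusters 4 rose, among them H2AX Cluster-9242.37141 (log2 fold change 0.58, SE 0.11, edgeR adjusted p = 0.000107) and H2AX Cluster-9242.37142 (log2 fold change 0.32, SE 0.07, edgeR adjusted p = 0.00106), forms of the H2AX variant that marks DNA breaks when phosphorylated. H2A variant 1 (Cluster-9242.75084) rose too (log2 fold change 0.42, SE 0.12, edgeR adjusted p = 0.012). Both CKS clusters rose, CKS1 (Cluster-9242.42034) from 29.7, 30.2 and 28.8 CPM to 42.7, 37.4 and 48.7 CPM (log2 fold change 0.54, SE 0.10, edgeR adjusted p = 3.14e-05), and it was still higher at 72 h (log2 fold change 0.40, SE 0.10, edgeR adjusted p = 0.00371). At 24 h, 9 members were higher and 5 lower, where 8.4% of all clusters were called (4.66% higher and 3.75% lower). Those lower at 24 h included the mitotic genes CDKB2-2 (log2 fold change -0.37, SE 0.10, edgeR adjusted p = 0.0143), CYCA1-1 (Cluster-9242.54341, log2 fold change -0.40, SE 0.12, edgeR adjusted p = 0.0357) and CYCB2-4 (Cluster-9242.56005, log2 fold change -0.62, SE 0.18, edgeR adjusted p = 0.0237). Another CYCB2-4, Cluster-9242.56789, was higher (log2 fold change 0.51, SE 0.15, edgeR adjusted p = 0.0236). The 24 h count fell to 8 without T0 replicate 1 or 3, or without unbent 24 h replicate 1 or 3, and to 9 without T0 replicate 2. The 5 lower calls lie near their background share. Lower calls numbered 1 without T0 replicate 3, without unbent 24 h replicate 1 or without the 2 libraries rich in thrips matches. They numbered 3 in each other fit without 1 library and 3 by limma-voom.

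At 72 h the members of unbent stems were mostly higher than before bending. Of the members, 37 were higher and 2 lower, where 10.3% of all clusters were called (5.58% higher and 4.76% lower). The median log2 fold change was 0.30 over the members and -0.02 over all clusters. Histones supplied 23 of the 37, with 0 lower: 7 of 7 H4, 3 of 3 H2B, 5 of 5 H3.2, 3 of 6 H3.3 and 5 of 8 H2A clusters. Their median log2 fold change was 0.44, and all 30 were above 0. The number of histones called ranged from 19 (without unbent 72 h replicate 2) to 23 over 17 alternatives.

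The most abundant H4 clusters by CPM show the values. Cluster-9242.53428 had 119, 116 and 101 CPM before bending, 106, 116 and 119 CPM in unbent stems at 24 h and 139.9, 185 and 158 CPM at 72 h (log2 fold change 0.52, SE 0.08, edgeR adjusted p = 5.2e-05). Cluster-9242.56314 had 123, 133 and 122 CPM before bending, 126, 129 and 133 CPM at 24 h and 158, 167 and 160.0 CPM at 72 h (log2 fold change 0.36, SE 0.07, edgeR adjusted p = 0.000292). In both, the 72 h unbent libraries lay above all 6 of the earlier ones. The H4 clusters Cluster-9242.51286 (log2 fold change 0.43, SE 0.07, edgeR adjusted p = 3.97e-05) and Cluster-9242.54698 (log2 fold change 0.54, SE 0.09, edgeR adjusted p = 9.65e-05), rose too.

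The H2B.1 cluster Cluster-9242.54169 had 458, 459 and 447 CPM before and 509, 636 and 572 CPM at 72 h (log2 fold change 0.33, SE 0.06, edgeR adjusted p = 0.000171). A second H2B.1 cluster, Cluster-9242.44666, had 48.1, 46.6 and 43.2 CPM before and 55.9, 75.7 and 60.5 CPM at 72 h (log2 fold change 0.48, SE 0.12, edgeR adjusted p = 0.00708). For H3.2, Cluster-9242.55040 went from 170.4, 158 and 149.7 CPM to 193, 251 and 211 CPM (log2 fold change 0.46, SE 0.09, edgeR adjusted p = 0.000766) and Cluster-9242.43921 rose as well (log2 fold change 0.50, SE 0.09, edgeR adjusted p = 5.9e-05). In each of these clusters unbent replicate 2 was the highest of the 3 libraries. H2AX Cluster-9242.34729 went from 25.4, 26.1 and 25.4 CPM to 36.0, 46.7 and 43.4 CPM (log2 fold change 0.71, SE 0.12, edgeR adjusted p = 0.000113). For another H2AX, Cluster-9242.34731, the change was smaller (log2 fold change 0.33, SE 0.08, edgeR adjusted p = 0.00504).

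Of 13 CDKB kinases, A-type cyclins and B-type cyclins (the one with a proteasome domain left out), 5 rose and 0 fell. CDKB2-2 had 19.2, 21.1 and 21.1 CPM at 24 h and 36.5, 44.3 and 36.7 CPM at 72 h in unbent stems, against 25.3, 25.7 and 28.4 CPM before (log2 fold change 0.56, SE 0.10, edgeR adjusted p = 0.000108). CDKB1-1 (Cluster-9242.43062) stayed low and variable, at 1.63, 1.33 and 1.38 CPM, and did not pass (log2 fold change 0.21, SE 0.44, edgeR adjusted p = 0.825). Of 7 A-type cyclins 3 rose, among them CYCA2-1 (Cluster-9242.61942, log2 fold change 0.38, SE 0.11, edgeR adjusted p = 0.0188) and CYCA2-4 (Cluster-9242.61149, log2 fold change 0.51, SE 0.13, edgeR adjusted p = 0.00645). CYCA1-1 had 31.8, 43.3 and 38.3 CPM against 27.9, 31.9 and 31.4 CPM before and did not pass (log2 fold change 0.31, SE 0.12, edgeR adjusted p = 0.0958). Of the 4 B-type cyclins with no proteasome domain, 1 rose, the CYCB2-4 of Cluster-9242.56789 (log2 fold change 0.60, SE 0.15, edgeR adjusted p = 0.00541). CYCB2-4 of Cluster-9242.53210, the highest of them, had 29.9, 30.5 and 26.4 CPM against 23.5, 24.3 and 26.5 CPM and did not pass (log2 fold change 0.22, SE 0.11, edgeR adjusted p = 0.215).

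A comparison of unbent stems at 72 h with unbent stems at 24 h was added after the data had been seen. It gave 23 members higher and 0 lower, where 1.28% of all clusters were called (1.02% higher). Histones were 15 of the 23, with 6 of 7 H4, 5 of 5 H3.2, 2 of 3 H2B and 0 of 6 H3.3 clusters. CDKB2-2 rose (log2 fold change 0.94, SE 0.10, edgeR adjusted p = 1.47e-07), and so did CYCD1-1 of Cluster-9242.47455 (log2 fold change 0.83, SE 0.12, edgeR adjusted p = 3.42e-05). CYCA1-1 (log2 fold change 0.71, SE 0.12, edgeR adjusted p = 0.000529) and CYCA2-4 (log2 fold change 0.68, SE 0.13, edgeR adjusted p = 0.00115) rose as well. This comparison shares its 72 h libraries with the comparison to T0. The part of unbent 72 h replicate 2 can be read from the class sums: the 7 H4 clusters summed to 769, 946 and 836 CPM in the 3 libraries at 72 h, against 617, 637 and 649.7 CPM at 24 h and 655, 622 and 602 CPM before. All 3 libraries at 72 h lay above the earlier 6.

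In bent stems at 72 h the mean class sums of H4 and of A-type cyclins lay between those of unbent stems at 72 h and before bending. The H4 sum was 778, 688 and 720.0 CPM in bent stems, of which 1 library overlapped the unbent ones. The A-type cyclin sum was 94.0, 115 and 97.7 CPM in unbent and 90.2, 83.0 and 87.0 CPM in bent stems, without overlap. CDKB2-2 had 36.5, 44.3 and 36.7 CPM in unbent and 33.9, 28.8 and 29.9 CPM in bent stems at 72 h, without overlap, and did not pass (log2 fold change -0.35, SE 0.10, edgeR adjusted p = 0.603). Over the 30 histones the median log2 fold change of bent against unbent was -0.17. Of them, 14 (46.7%) had an unadjusted edgeR p under 0.05, against 5.45% of all clusters. The histone clusters may share reads and are all compared with the same 3 unbent libraries, so they are not independent. Unbent replicate 2 was the highest of those, with H4 sums of 769, 946 and 836 CPM and H2B sums of 718, 874 and 776 CPM. After adjustment by edgeR 0 histones were called, as were 0 of all 52918 clusters. The sums are descriptions and were not tested.

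**Figure D5:**
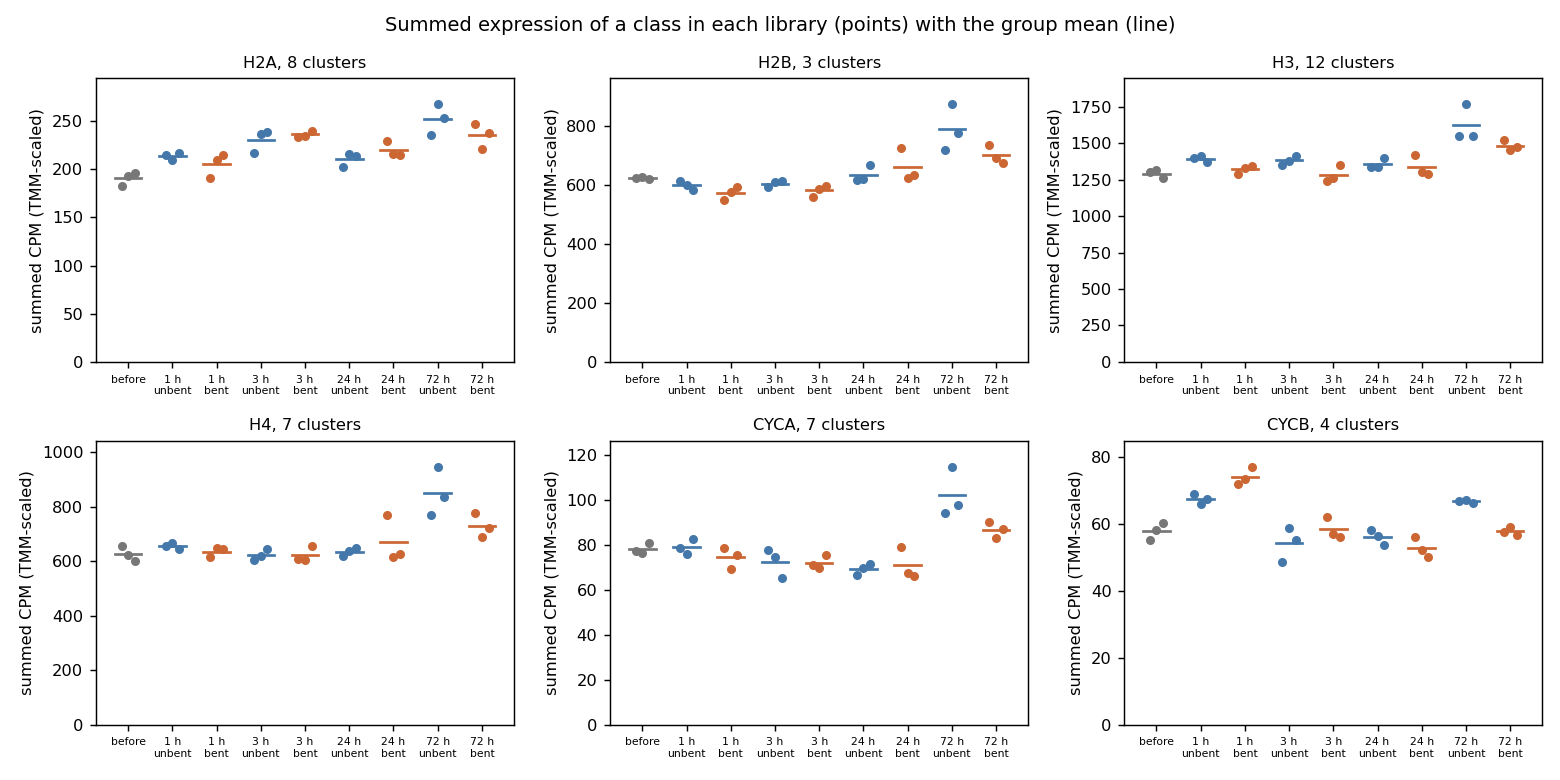
Summed TMM-scaled CPM of 4 histone classes, the A-type cyclins and the 4 B-type cyclins with no proteasome domain in each library (points) with the group mean (line). For H4, all 3 unbent 72 h libraries (blue) lie above the earlier unbent libraries, with replicate 2 the highest, and the mean of the bent 72 h libraries (orange) lies between, with 1 of them inside the unbent range.

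Markers of other tissues in the unbent stems at 72 h were as follows. Of 41 xylem markers 3 were higher and 3 lower than before bending, with sums of 738 to 917 FPKM before and 883 to 1411 FPKM at 72 h. Unbent replicate 1 had the highest xylem sum, and replicate 2, the highest for histones, the lowest at 883 FPKM. Of 30 photosynthetic markers 10 were higher and 3 lower, with sums of 9301 to 10944 FPKM before and 10770 to 12079 FPKM at 72 h. Among all clusters, 5.58% were called higher and 4.76% lower in this comparison. Ribosomal RNA clusters held 3.05% to 8.44% of counts before and 3.16% to 3.68% at 72 h, and without the 3 libraries rich in them 22 histones were called at 72 h. The part of tissue makeup in the histone levels was not tested.

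Further cell-cycle genes outside the rule were read from name lists. For these lists, fell and rose mean lower and higher in bent than in unbent stems of the same time. Under bending, 2 of 17 genes of G1/S control fell at 1 h, where 0.814% of all clusters were called lower. RBR, the retinoblastoma-related repressor that D-type cyclin kinases act on, was at 35.9 ± 0.349 CPM in unbent and 27.4 ± 1.41 CPM in bent stems (SD, n = 3 each; log2 fold change -0.39, SE 0.08, edgeR adjusted p = 0.00215). CDT1A, a replication licensing factor, had a log2 fold change of -0.86 (SE 0.23, edgeR adjusted p = 0.027). Of 54 replication genes 0 were called in any bending comparison by edgeR, with 1, 6, 11 and 9 at an unadjusted p under 0.05 at 1, 3, 24 and 72 h. These are 1.85%, 11.1%, 20.4% and 16.7% of the list, against 10.5%, 15.8%, 6.18% and 5.45% of all clusters. Genes of the list are measured in the same libraries and are not independent. Of 55 genes of G2/M and the spindle checkpoint, 2 rose at 3 h, a share of 3.64% near the 3.05% of all clusters called higher. They were MYB3R3, a regulator of mitotic genes (0.58, SE 0.15, edgeR adjusted p = 0.0111), and BUB3.2, a checkpoint protein (0.37, SE 0.10, edgeR adjusted p = 0.0236).

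Of 21 histone chaperones, NAP1;4 rose at 1 h (log2 fold change 0.35, SE 0.09, edgeR adjusted p = 0.0171) and at 3 h (0.36, SE 0.09, edgeR adjusted p = 0.00722), and FAS1, a chromatin assembly factor subunit, rose at 3 h (0.30, SE 0.09, edgeR adjusted p = 0.041). Of 25 growth and meristem regulators, GRF1, a growth-regulating factor, rose at 3 h (0.78, SE 0.15, edgeR adjusted p = 0.000368). WOX4, which promotes cambial divisions in Arabidopsis, went from 58.2 ± 3.06 CPM in unbent to 79.2 ± 3.50 CPM in bent stems at 3 h (SD, n = 3 each; log2 fold change 0.44, SE 0.09, edgeR adjusted p = 0.00134). SCL6, of the HAM family, fell (-0.29, SE 0.07, edgeR adjusted p = 0.00578). Of 5 clusters named as CDC2 kinases, a list made after the names were seen, 1 fell at 3 h (Cluster-9242.57343, -0.35, SE 0.10, edgeR adjusted p = 0.0216). Under bending, 1.11% of all clusters were called higher at 1 h, and 3.05% higher and 2.03% lower at 3 h. At 72 h in unbent stems 8 of 54 replication genes were higher than before bending and 0 lower. Of the 55 G2/M genes, 12 (21.8%) were higher and 5 lower. Among all clusters, 5.58% were higher and 4.76% lower in that comparison.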

How the data were processed

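Poly(A)-selected RNA of whole stems was sequenced as paired reads in 27 libraries, per the labels' protocols. The authors deposited expected counts per assembled cluster and FPKM values with cluster lengths and annotations, per the file headers. The submitters' processing notes name RSEM 1.2.28; assembler and read filters are not given in the sources used here. Of the deposited counts, 8.05% of values were not whole and were rounded. Members, classes and lists were chosen with earlier results of these data known. Counts were tested with edgeR 4.0.16 (R 4.3.3; TMM, filterByExpr on 9 groups, robust quasi-likelihood fit of all 27 libraries, Benjamini-Hochberg adjustment over 52918 clusters), which was tested on simulated data. The standard error is the log2 fold change divided by the square root of F. The common biological coefficient of variation was 0.158. P-values measure the spread between 3 libraries per group. Named were all members passing under bending and, per class, the 2 most abundant by CPM and up to 3 with the smallest p over time in unbent stems; from each list, up to 4 genes passing under bending. Deposited FPKM served for levels per length. Alternatives were DESeq2 1.42.0, limma-voom 3.58.1, RLE size factors, other filters, limma on log2 FPKM with a pseudocount of 0.1 or 1, a replicate block, fits of 6 libraries, leaving out each library and, added after the data were seen, leaving out 3 libraries over 5% ribosomal RNA or 2 over 0.05% thrips matches, and a 2-fold minimum. No sequence was printed because none was among the sources used here.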

Additional observations from a re-analysis of the deposited data

Results flagged for a closer look

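The test that the bending effect itself differs between the 4 times (edgeR F test, adjusted p over all clusters tested) was passed by 4 of 114 members. Among all clusters 2.11% passed it. CYCP3-1 (Cluster-9242.37222) had an adjusted p of 0.0102, with log2 fold changes of bent against unbent of 0.17 at 1 h, 0.60 at 3 h, 0.18 at 24 h and 0.11 at 72 h. CYCD1-1 (Cluster-9242.47455) had an adjusted p of 0.0268, with 0.35, 0.50, 0.08 and -0.24 at the same times.

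Histone H3.2 (Cluster-9242.36495) had an adjusted p of 0.0198, with log2 fold changes of -0.21, -0.08, 0.25 and -0.37 at 1, 3, 24 and 72 h. Its levels were 39.4, 42.1 and 38.4 CPM in unbent and 51.3, 43.0 and 48.1 CPM in bent stems at 24 h, and 49.9, 74.2 and 60.2 CPM in unbent and 47.5, 43.5 and 51.9 CPM in bent stems at 72 h. Histone H2AX (Cluster-9242.34729) had an adjusted p of 0.0314, with -0.26, 0.06, 0.34 and -0.40. Its levels were 25.7, 21.8 and 27.3 CPM in unbent and 38.6, 26.8 and 29.0 CPM in bent stems at 24 h, and 36.0, 46.7 and 43.4 CPM and 34.4, 27.5 and 33.9 CPM at 72 h. Neither histone passed at any single time. The number of members passing this test ranged from 2 to 7 when single libraries were left out, and was 1 by limma-voom and 6 by DESeq2.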

How the results depend on the processing

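Of 128 counts of members called under settings other than leaving out 1 library, 115 were within 1.5 times the reported count, and so were 73 of 93 counts with 1 library left out. Of 204 fold changes of the 11 members called under bending, over both kinds of setting, 154 kept their call, 50 lost it and 0 changed sign. The count at 1 h under bending (1) was 2 with 6 libraries alone and 2 with names matched in any case. The count at 3 h under bending (11) was 7 with 6 libraries alone, 6 without the libraries rich in ribosomal RNA and 0 with a 2-fold minimum. In unbent stems the 24 h count (14) was 9 without the libraries rich in ribosomal RNA and 8 without those rich in thrips matches. A 2-fold minimum left 3 members at 1 h, 2 at 3 h, 0 at 24 h and 1 at 72 h in unbent stems, and 0 between 24 h and 72 h. The test of a bending effect that differs between times gave 1 by limma-voom. Leaving out single libraries gave 1 to 2 calls under bending at 1 h, 3 to 11 at 3 h, 0 to 0 at 24 h and 0 to 1 at 72 h. It gave 16 to 21 in unbent stems at 1 h, 14 to 19 at 3 h, 8 to 11 at 24 h, 29 to 39 at 72 h, and 16 to 22 from 24 h to 72 h. It gave 2 to 7 for the differing bending effect and 63 to 68 for change over time. Over the most variable clusters, samples with the same replicate number showed little shared deviation (8 of 108 pairs had a correlation over 0.1, the highest 0.178). That check does not cover the other clusters. Whether libraries of the same number share a plant, harvest or batch is not given and was not otherwise tested. A replicate block changed no count but that of change over time, which was 68 in place of 67. At a common coefficient of variation of 0.158 and 3 libraries a group, small changes of clusters with few reads may go uncalled.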

Other observations

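The name rule left out 23 clusters whose names hold cyclin or histone in lower case only, such as G2/mitotic-specific cyclins. In unbent stems at 72 h, 11 of these 23 were higher than before bending and 0 lower (edgeR adjusted p under 0.05). Among all clusters, 5.58% were higher and 4.76% lower. The median log2 fold change was 0.38 over the 23 and -0.02 over all clusters. Under bending 1 of the 23 was lower at 1 h, where 0.814% of all clusters were, and 0 were called at the other times. At 72 h under bending their median was -0.19, with 7 of the 23 at an unadjusted edgeR p under 0.05, against 5.45% of all clusters. These clusters share their libraries with the members.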
